A study of Mus musculus with 12 samples.

Results

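The genes described here are 9 members of the IL-6 cytokine family and its signalling chain, picked by gene symbol from the 48321 rows of the normalized count matrix: the ligands Il6, Il11 and Lif, the receptor chains Il6ra, Il6st, Lifr and Osmr, the transcription factor Stat3 and the inhibitor Socs3. All 9 symbols were present. They were measured by RNAseq in 12 libraries of brown adipocytes, 3 in each of 4 groups. The cells were SV40-immortalized preadipocytes from the interscapular brown fat of wildtype C57BL/6J mice, and the study's methods name a newborn mouse as the source. They were stably transduced with the empty pLEX vector or with tSema4B, a truncated soluble form of semaphorin 4B. For each construct 1 transduced line was used. All 4 groups were differentiated for 8 days with a cocktail that held dexamethasone, rosiglitazone, 3-isobutyl-1-methylxanthine, insulin and triiodothyronine, which was followed by medium with insulin and triiodothyronine. Each line was then kept unstimulated or was given 2 μM norepinephrine (NE), the agonist of adrenergic receptors, for 6 h in medium free of serum. Groups are named by line and treatment, as vector or tSema4B and as unstimulated or NE. The study's design text describes the replicates of each condition (3 libraries) as technical, so the p-values measure the spread between these libraries, which may be technical, and every difference between tSema4B and vector is one between these 2 lines.

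Cytokines of the IL-6 family signal through receptor complexes that share gp130, the product of Il6st. IL-6 and IL-11 first bind a chain of their own (IL-6 receptor alpha from Il6ra, for example), whereas LIF pairs gp130 with the LIF receptor and oncostatin M pairs it with the oncostatin M receptor (Osmr). The paired chains activate Janus kinases, which phosphorylate STAT3, and STAT3 drives acute phase genes as well as Socs3, whose product binds gp130 and shuts the signal off. Brown and white adipocytes are known to make IL-6 when their beta-adrenergic receptors are stimulated.

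Values are read counts divided by the size factor of each library (normalized counts). Reads on genes lay between 2000780 and 5409583 per library and differed between the groups, from 4739777 upwards in vector NE and 3682634 or fewer in the others, and 1 read was worth 0.593 to 1.55 normalized counts. Genes that reached 10 normalized counts in at least 3 libraries were tested (11998), and 7 of the 9 members were among them, the exceptions being Il11 and Lif. The 2 thresholds for a call were an adjusted p (limma) of 0.05 or less and a change of 2-fold or more, that is, 1 on the log2 scale, and rose or fell is written only of genes that met both. Fold changes are on the scale of log2(value + 1), which understates the change of low genes. With 3 libraries against 3, the smallest p of an exact permutation test is 0.1, so the adjusted p-values rest on the spread that limma pools over genes. As a check of the labels, Sema4b, the transduced gene, was at 116797 ± 6692 normalized counts in vector and 281514 ± 31108 in tSema4B unstimulated, and at 74266 ± 8219 and 234276 ± 32374 after NE, so its level was also high in vector cells, and reads from the construct cannot be told apart from those of the cells' own gene. Mitochondrially encoded genes took 13.4 to 16.7% of the reads in vector and 6.91 to 7.89% in tSema4B libraries, and with libraries scaled to their nuclear reads no call or direction of a tested member changed. Their part and that of depth in the results was otherwise not tested. Of the cell type markers, 8 of the 8 tested adipocyte markers were called lower in tSema4B than in vector cells in both conditions (median log2 fold change -2.49 unstimulated and -1.86 after NE), beside 2.71% and 3.73% of all tested genes. Of 10 preadipocyte and fibroblast markers, 4 were called higher in each condition (3 by edgeR in unstimulated cells), beside 1.11% and 2.03% of all tested genes. Of 6 tested brown fat markers, 5 were called lower in tSema4B in both conditions, beside 2.71% and 3.73% of all tested genes. Ppargc1a went the other way and was not called, at 20.8 ± 6.58 normalized counts in vector and 32.8 ± 20.2 in tSema4B unstimulated. After NE it stood at 13.5 ± 4.22 and 18.3 ± 9.26. All 9 listed markers, among them Ucp1 and Cidea, summed to 225 to 277 in vector and 44.1 to 69.8 in tSema4B unstimulated. After NE the sums were 508 to 531 and 106 to 137, and no read of Dio2 was seen. Bulk RNA cannot tell fewer adipocytes from less adipocyte RNA per cell, and the part of cell composition in any difference between the lines was not tested. Of 9 immune markers, Ptprc, Adgre1, Tyrobp and Cd3e had 0 reads in all 12 libraries, while Cd14, Csf1r and Cd68 had reads in each of the 4 groups.

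Il6, Socs3 and Osmr rose after NE in at least 1 line, and their RefSeq promoter windows are printed to show the letters the motif search matched there. The windows are those of RefSeq on GRCm38.p6, 300 bases long from 250 before to 50 after the transcription start, read 5′ to 3′ on the gene's strand, and a window was found for 9 of the 9 members. Capitals mark matches to a motif of the search, and positions are counted from the transcription start, whose own base is 1. The window of Il6 is chr5:30012864-30013163 on the + strand, that of Socs3 is chr11:117969317-117969616 on the - strand, and that of Osmr is chr15:6874264-6874563 on the - strand. The Il6 window spans the start that GENCODE gives for the gene, whereas the windows of Socs3 and Osmr lie inside the longer GENCODE genes, downstream of the GENCODE starts, so their positions hold for the RefSeq start alone.
Il6: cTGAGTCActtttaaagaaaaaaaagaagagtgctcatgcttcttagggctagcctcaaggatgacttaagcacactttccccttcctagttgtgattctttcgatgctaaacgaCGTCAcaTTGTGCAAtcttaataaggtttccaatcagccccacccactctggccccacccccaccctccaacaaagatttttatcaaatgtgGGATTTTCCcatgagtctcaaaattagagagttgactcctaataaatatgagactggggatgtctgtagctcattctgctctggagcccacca
Socs3: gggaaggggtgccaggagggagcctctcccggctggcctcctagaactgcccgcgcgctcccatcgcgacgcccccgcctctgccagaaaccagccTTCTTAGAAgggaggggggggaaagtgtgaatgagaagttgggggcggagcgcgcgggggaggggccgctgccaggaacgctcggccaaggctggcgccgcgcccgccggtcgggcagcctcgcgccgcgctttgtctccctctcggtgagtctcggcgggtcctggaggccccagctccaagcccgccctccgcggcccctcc
Osmr: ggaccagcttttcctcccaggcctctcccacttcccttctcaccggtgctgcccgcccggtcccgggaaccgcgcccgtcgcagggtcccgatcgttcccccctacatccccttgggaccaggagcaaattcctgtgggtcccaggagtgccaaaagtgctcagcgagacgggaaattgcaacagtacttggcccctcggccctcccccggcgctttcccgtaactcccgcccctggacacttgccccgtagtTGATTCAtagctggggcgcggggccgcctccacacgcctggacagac

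Both strands were searched for 6 motifs: the cAMP response element TGACGTCA, its core TGACG, the STAT site TTCNNNGAA, the C/EBP site TTGCNNAA, the AP-1 site TGANTCA and the kappa-B site GGANTTTCC. The core also counts inside a full cAMP element. The Il6 window held an AP-1 match at -249, a cAMP core at -135, a C/EBP match at -128 and a kappa-B match at -43. The Socs3 window held a STAT match at -154. The Osmr window held an AP-1 match at 4. Members that were not called after NE held matches too, a cAMP core at -236 in Il6ra, and AP-1 matches at -98 in 1 of the windows of Il11 and at -228 in Lif, while the windows of Il6st, Lifr and Stat3 held none. For comparison, the AP-1 letters stood in 7.81% of all 32851 promoter windows, the core in 20.81%, the C/EBP letters in 10.8%, the kappa-B letters in 1.25%, the STAT letters in 8.30% and the full cAMP element in 1.79%. These are matches of letters and not shown to be bound.

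The order of the members was set by normalized counts per kilobase of exon. Il6st had the highest level in every group, at 94.3 ± 5.24 per kb (SD, n = 3) in vector unstimulated, 146 ± 24.0 in tSema4B unstimulated, 157 ± 6.72 in vector NE and 283 ± 20.5 in tSema4B NE, and its libraries stood clear of those of every other member. Stat3 came second in each group, between 55.1 ± 2.57 per kb in tSema4B unstimulated and 93.3 ± 4.30 in vector NE. Osmr, Lifr and Socs3 filled the middle. In vector unstimulated they stood at 29.0, 26.5 and 19.9 per kb and the libraries of Osmr and Lifr overlapped, whereas in vector NE Socs3 was at 73.7 and Osmr at 68.3, which also overlapped, and Lifr was at 15.4, where its libraries overlapped those of Il6. In tSema4B NE the libraries of Stat3 (78.8), Osmr (71.4) and Socs3 (71.4) overlapped. Il6ra, the chain that gives a cell its own response to IL-6, was far below gp130, between 6.69 and 7.92 per kb in the 4 groups. The ligands were lowest in unstimulated cells, where Il6, Il11 and Lif lay at about 1 per kb or less with overlapping libraries. After NE Il6 stood at 12.1 per kb in vector cells, above Il6ra, and at 8.74 in tSema4B cells, where it overlapped Il6ra at 7.66.

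**Figure D1:**
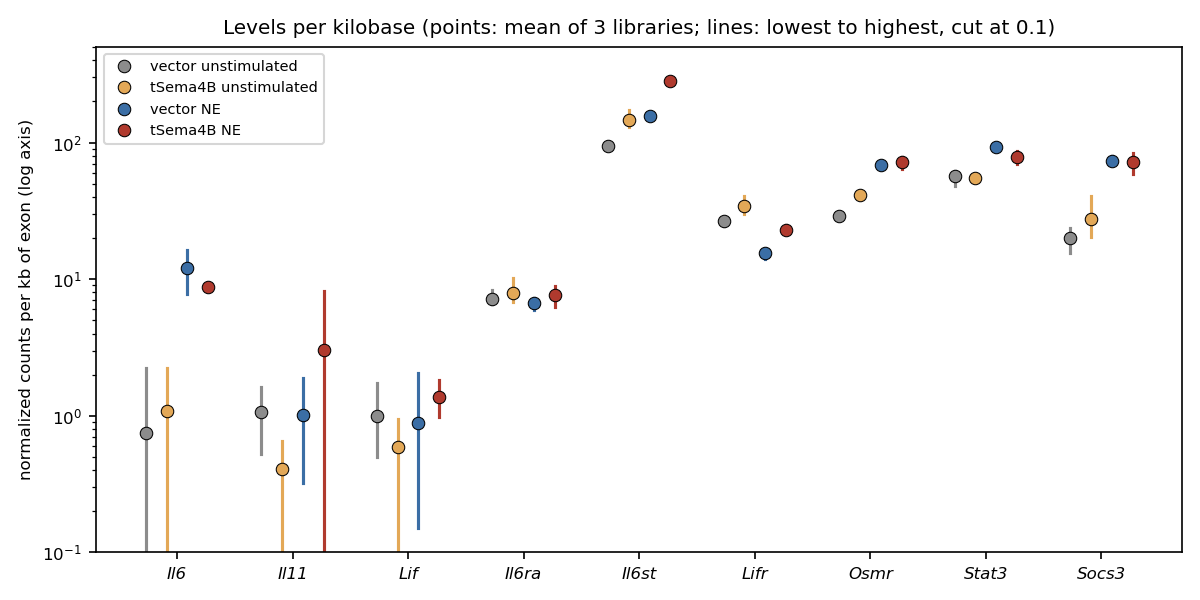
Normalized counts per kilobase of exon for the 9 members on a log axis, with a point at the mean of 3 libraries and a line from the lowest to the highest library, cut at the foot of the axis. Il6st lies above all other members in each group, from 94.3 to 283 per kb, and Il6 moves from the bottom of the plot to 12.1 (vector) and 8.74 (tSema4B) per kb after NE.

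Il6 (ENSMUSG00000025746.11, GRCm38 chromosome 5, 30013114 to 30019981, + strand) encodes the founding ligand. In vector unstimulated its 3 libraries held 0, 0 and 5.45 normalized counts, and in tSema4B unstimulated 2.38, 0 and 5.48. After NE the values were 39.6, 19.0 and 29.5 in vector cells and 20.4, 20.8 and 22.5 in tSema4B cells. Every NE library lay above every unstimulated library in each line, while the lines overlapped unstimulated and after NE. The numbers rest on few reads, 5 and 6 in all over the unstimulated groups against 136 (vector NE) and 58 (tSema4B NE). Il6 rose with NE by a log2 fold change of 3.97 (SE 0.771, 95% interval 2.37 to 5.57, adjusted p = 0.00162, limma) in vector cells and of 2.99 (SE 0.771, 1.39 to 4.59, adjusted p = 0.0210) in tSema4B cells. With a pseudocount of 10 the log2 fold changes were 1.73 and 1.33, and both calls were kept. The call in tSema4B cells was lost without the filter on low genes (adjusted p = 0.0685), and also without tSema4B unstimulated replicate 2 (log2 fold change 2.25, adjusted p = 0.0949), tSema4B NE replicate 2 (adjusted p = 0.0591) or tSema4B NE replicate 3 (adjusted p = 0.0584). Between the lines the log2 difference of Il6 was 0.59 unstimulated (-1.01 to 2.19, adjusted p = 0.688) and -0.39 after NE (-1.99 to 1.21, adjusted p = 0.769), intervals wide enough to hold a change of more than the threshold either way.

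The other ligands were barely detected. Il11 (ENSMUSG00000004371.15, chromosome 7, 4772373 to 4782859, - strand) held 1.09, 3.36 and 2.18 normalized counts in vector unstimulated, 1.19, 0 and 1.37 in tSema4B unstimulated, 0.672, 1.78 and 3.93 in vector NE, and 0, 1.89 and 17.2 in tSema4B NE. A single library, tSema4B NE replicate 3 with 13 reads, stood above the rest, and the groups overlapped. Lif (ENSMUSG00000034394.14, chromosome 11, 4257557 to 4272514, + strand) held 3.26, 7.57 and 2.18 in vector unstimulated, 3.58, 0 and 4.11 in tSema4B unstimulated, 2.02, 8.89 and 0.655 in vector NE, and 4.29, 5.68 and 7.93 in tSema4B NE. No library of Lif held more than 15 reads. Unlike Il6, neither was shown to respond to NE at this depth. In a fit with no filter the log2 fold changes of Lif were -0.41 (SE 0.832, adjusted p = 0.876) in vector and 1.25 (SE 0.832, adjusted p = 0.592) in tSema4B cells, and those of Il11 were -0.11 (SE 0.860, adjusted p of 1) and 1.11 (SE 0.860, adjusted p = 0.650).

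**Figure D2:**
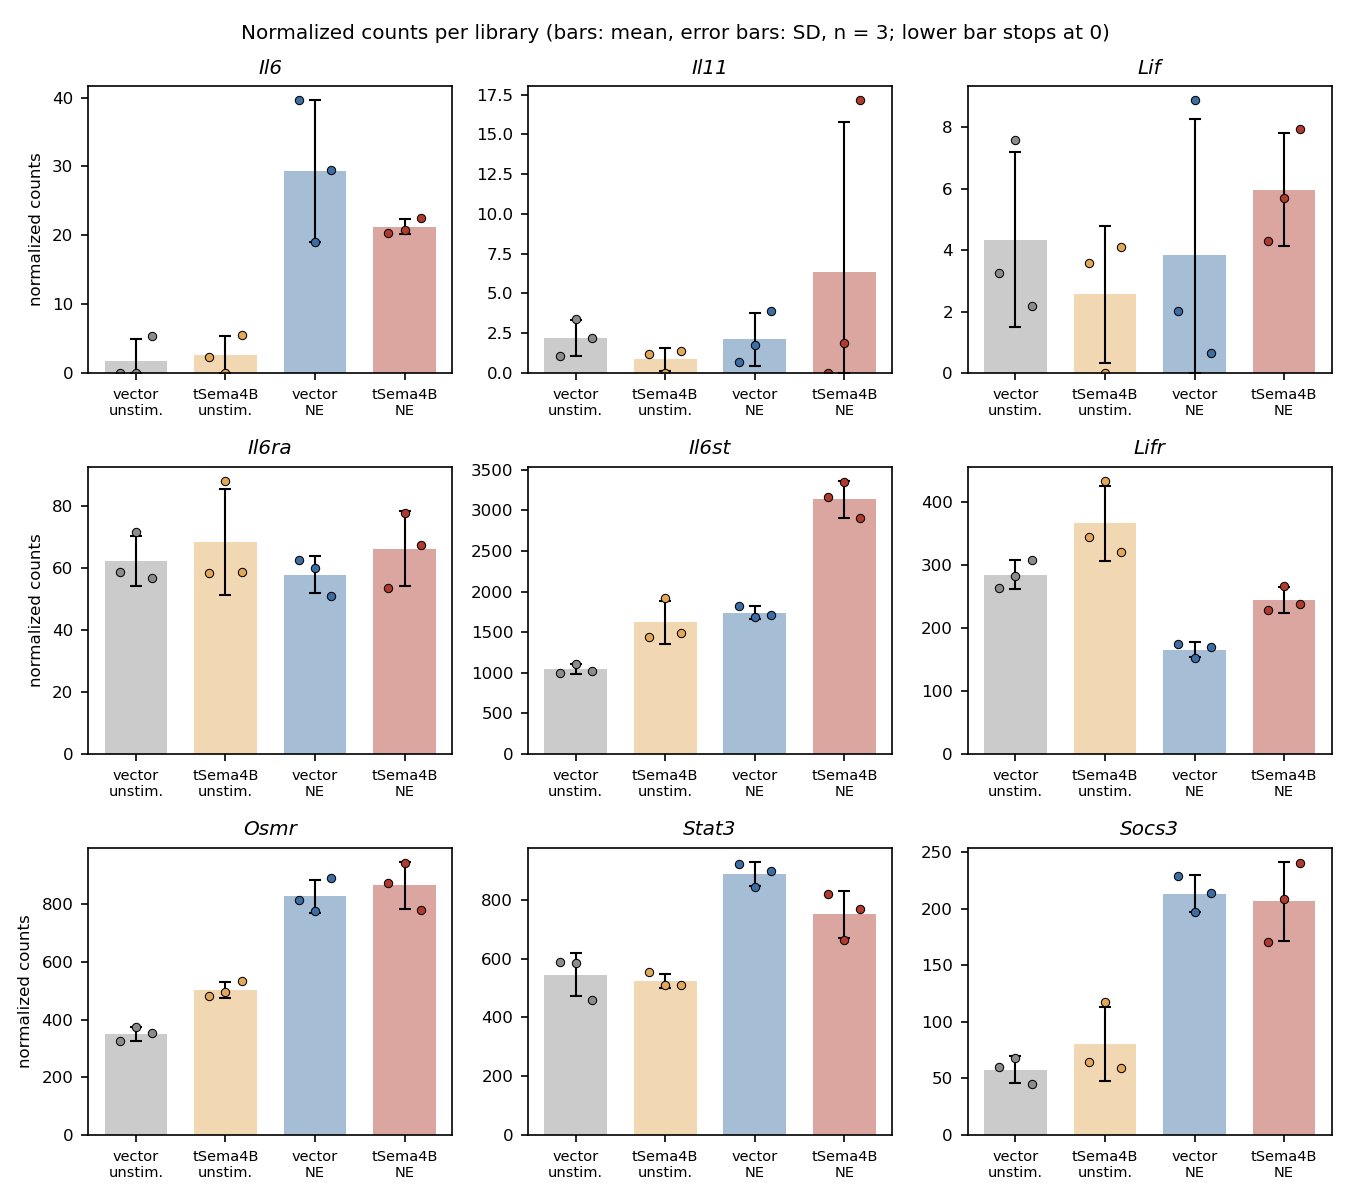
Normalized counts of the 9 members in the 12 libraries, with points for libraries, bars for the group mean and error bars for the SD (n = 3). Il6 is at 5.48 or less in all unstimulated libraries and at 19.0 or more in all NE libraries, Il6st is highest in tSema4B NE, and Il6ra stays between 51.1 and 88.2 in the 12 libraries.

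Il6ra (ENSMUSG00000027947.11, chromosome 3, 89864059 to 89913196, - strand) encodes the IL-6 binding chain. It held 58.6, 71.5 and 56.6 normalized counts in vector unstimulated, 58.4, 88.2 and 58.9 in tSema4B unstimulated, 62.5, 59.9 and 51.1 in vector NE, and 53.6, 77.6 and 67.4 in tSema4B NE. All 4 groups overlapped. Its log2 differences were -0.10 (95% interval -0.61 to 0.40, adjusted p = 0.859) for NE in vector, -0.04 (-0.54 to 0.47, adjusted p = 0.960) for NE in tSema4B, 0.12 (-0.39 to 0.62, adjusted p = 0.818) between the unstimulated lines and 0.18 (-0.32 to 0.69, adjusted p = 0.649) between the NE-treated lines. No interval reached a log2 fold change of 1, so among the 7 tested members Il6ra was the one for which neither NE nor tSema4B gave a difference beyond the spread. Of its exon bases, 242 overlap the gene Gm42809 on the other strand, and the strand setting of the counting is not given in the sources used here.

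Il6st (ENSMUSG00000021756.12, chromosome 13, 112464070 to 112510086, + strand), the shared gp130 chain, differed in all 4 comparisons. Its values were 1000.2, 1112 and 1027 normalized counts in vector unstimulated and 1441, 1926 and 1492 in tSema4B unstimulated. After NE they were 1827, 1687 and 1713 in vector cells and 3159, 3356 and 2903 in tSema4B cells. In each of the 4 comparisons the groups did not overlap, and the lowest tSema4B NE library stood above all 9 libraries of the other groups. Between the lines Il6st was higher in tSema4B by 0.62 (SE 0.0952, 0.42 to 0.82, adjusted p = 7.45e-05) unstimulated and 0.85 (SE 0.0952, 0.65 to 1.04, adjusted p = 1.26e-06) after NE. With NE it was higher by 0.74 (adjusted p = 1.82e-05) in vector and 0.96 (0.77 to 1.16, adjusted p = 6.60e-07) in tSema4B cells. All 4 differences passed the adjusted p and stayed under the fold threshold, except that the last reached 1.10 without tSema4B unstimulated replicate 2 and 1.02 without tSema4B NE replicate 3.

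Lifr (ENSMUSG00000054263.12, chromosome 15, 7090614 to 7197489, + strand) encodes the receptor chain for LIF and was the one tested member whose NE libraries all lay below the unstimulated ones. It held 264, 283 and 309 normalized counts in vector unstimulated and 175, 152 and 171 in vector NE, with a log2 difference of -0.78 (SE 0.138, -1.06 to -0.49, adjusted p = 7.09e-04). In tSema4B cells it held 344, 435 and 322 unstimulated and 229, 268 and 238 after NE, a log2 difference of -0.57 (SE 0.138, -0.86 to -0.29, adjusted p = 0.0135). The adjusted p in tSema4B cells became 0.0537 with only the compared groups in the fit and 0.0789 without tSema4B unstimulated replicate 2. Each tSema4B library was above each vector library in both conditions, by 0.35 unstimulated (adjusted p = 0.0985) and by 0.56 after NE (SE 0.138, adjusted p = 0.00583). None of these differences reached the fold threshold.

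Osmr (ENSMUSG00000022146.12, chromosome 15, 6813577 to 6874969, - strand) encodes the oncostatin M receptor chain. Vector unstimulated libraries held 326, 375 and 353 normalized counts and vector NE libraries held 814, 777 and 889.8. Osmr rose there by a log2 fold change of 1.23 (SE 0.103, 1.02 to 1.45, adjusted p = 5.46e-08), the smallest of the called changes. In tSema4B cells the values were 480.3, 495 and 534 unstimulated and 873, 943 and 779.6 after NE, with no overlap and a log2 difference of 0.78 (SE 0.103, 0.57 to 0.99, adjusted p = 3.54e-05) that stayed under the fold threshold. Before NE the tSema4B libraries stood above the vector libraries (log2 difference 0.52, SE 0.103, adjusted p = 0.00121), and after NE the lines overlapped (0.06, -0.15 to 0.28, adjusted p = 0.718). The NE response of Osmr was smaller in tSema4B cells by 0.46 on the log2 scale (95% interval of the interaction -0.76 to -0.15, unadjusted p = 0.00481), which did not pass the adjustment over all genes (adjusted p = 0.255, limma).

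Stat3 (ENSMUSG00000004040.16, chromosome 11, 100885098 to 100939540, - strand), the transcription factor of the pathway, was higher after NE in each line. Vector cells held 589, 585 and 461 normalized counts unstimulated and 923, 843 and 899.6 after NE, a log2 difference of 0.71 (SE 0.109, 0.49 to 0.94, adjusted p = 1.39e-04). The tSema4B cells held 553, 510.5 and 510.7 unstimulated and 821, 663 and 768 after NE, a log2 difference of 0.51 (SE 0.109, 0.28 to 0.74, adjusted p = 0.00509). In neither line did the NE libraries overlap the unstimulated ones, and both differences stayed under the fold threshold. The lines overlapped unstimulated (-0.05, -0.27 to 0.18, adjusted p = 0.843). After NE the tSema4B libraries all lay below the vector libraries, by -0.25 (-0.47 to -0.02), with an adjusted p of 0.113. Of its exon bases, 72 overlap Stat5a on the other strand.

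Socs3 (ENSMUSG00000053113.3, chromosome 11, 117966079 to 117970047, - strand), the feedback inhibitor, rose in each line. Its values were 59.7, 68.1 and 44.7 normalized counts in vector unstimulated and 229, 197 and 213 in vector NE, which is a log2 fold change of 1.89 (SE 0.231, 1.41 to 2.37, adjusted p = 8.11e-06). In tSema4B cells they were 64.4, 118 and 58.9 unstimulated and 171, 208 and 240.5 after NE, a log2 fold change of 1.41 (SE 0.231, 0.93 to 1.89, adjusted p = 4.22e-04). No NE library overlapped an unstimulated one in either line, whereas the lines overlapped in each condition. The difference between the lines was 0.43 (-0.05 to 0.90, adjusted p = 0.255) unstimulated and -0.06 (-0.54 to 0.42, adjusted p = 0.893) after NE.

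Counted over the members, 3 of the 7 tested were called after NE in vector cells and 2 in tSema4B cells, all of them higher, beside 2.63% and 2.07% of the 11998 genes tested in either direction and 1.66% and 1.31% in this one. At the adjusted p alone 6 members passed in each line, beside 11.6% and 6.25% of all genes. NE and unstimulated groups did not overlap for 6 of the 7 tested members in each line (5 higher and Lifr lower), beside 33.3% of all genes in vector cells and 20.7% in tSema4B cells. Il6 is in each of these counts and passed the filter only through its NE libraries (19.0 or more, against 5.48 or less unstimulated). Its place in them was thus partly set by the filter. The median log2 difference of the 7 was 0.74 in vector and 0.78 in tSema4B cells, against -0.02 and -0.005 over all tested genes. These 2 comparisons share no libraries, but each shares its libraries with the comparisons of the lines. Between the lines 0 members were called in either condition by limma, edgeR or DESeq2, beside 3.82% of all genes unstimulated and 5.76% after NE. At an unadjusted p under 0.05, 3 of the 7 members differed between the lines in each condition, beside 26.1% of all genes unstimulated and 32.9% after NE. At the adjusted p alone 2 passed unstimulated (Il6st and Osmr) and 2 after NE (Il6st and Lifr), beside 13.0% and 21.0% of all genes. The groups did not overlap for 3 members unstimulated (Il6st, Lifr and Osmr higher in tSema4B) and for 3 after NE (Il6st and Lifr higher, Stat3 lower), beside 29.4% and 37.7% of all genes, so the count was 3 of 7 in each condition. The interaction of tSema4B and NE passed for 0 members by limma, edgeR or DESeq2, beside 0.0250% of all genes by limma, and 1 member (Osmr) had an unadjusted p under 0.05, beside 10.2% of all genes.

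**Figure D3:**
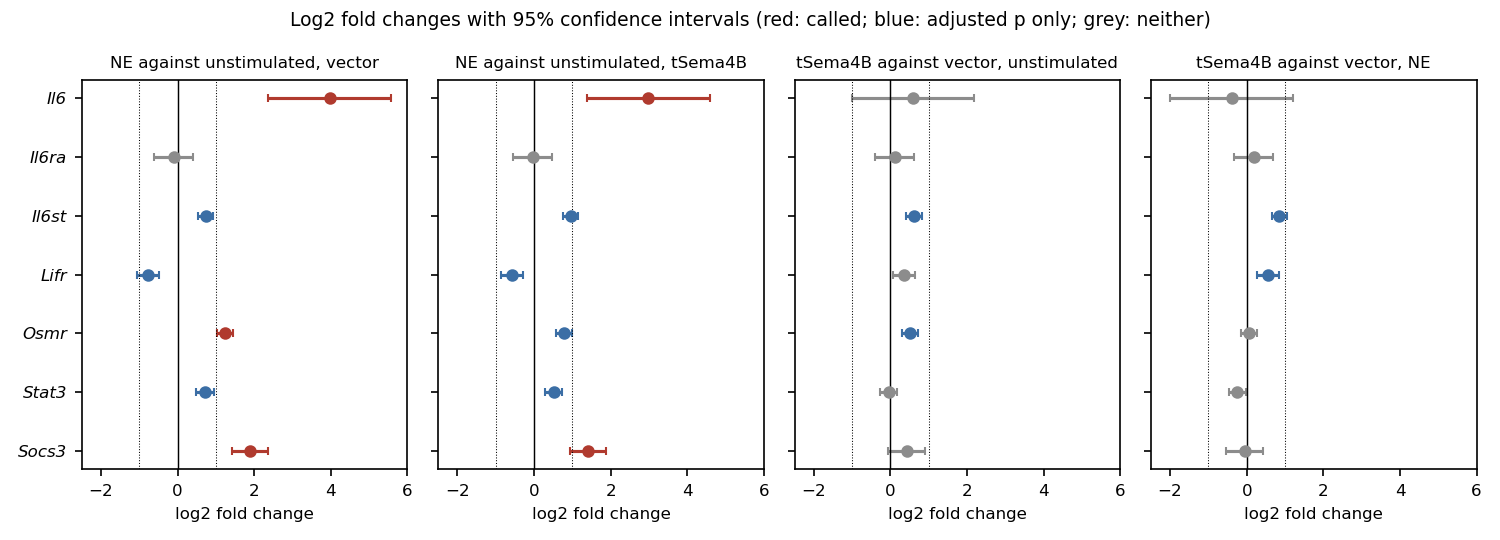
Log2 fold changes of the 7 tested members with 95% confidence intervals in the 4 comparisons, with dotted lines at the fold threshold, red for called genes, blue for genes that passed the adjusted p alone and grey for the others. Il6, Osmr and Socs3 are red for NE in vector cells (3.97, 1.23 and 1.89), Il6 and Socs3 for NE in tSema4B cells (2.99 and 1.41), and no member is red between the lines.

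Likeness of pattern was measured as the Pearson correlation of log2 values over the 12 libraries, which share the 4 groups and their depths, and is a description. The genes nearest to Il6 were Srpk1 (r = 0.953) and Utp11l (r = 0.918). Srpk1 stood at 195 ± 31.2 and 193 ± 22.4 normalized counts in the unstimulated vector and tSema4B cells and at 252 ± 20.0 and 257 ± 16.1 after NE, a far narrower range than that of Il6. Those nearest to Osmr were Phlda1 (r = 0.970) and Tsc22d1 (r = 0.965). Phlda1 shared the step between the unstimulated lines, with 38.0 ± 0.143 in vector and 71.6 ± 13.7 in tSema4B, and stood at 125 ± 10.7 and 155 ± 24.4 after NE. Those nearest to Socs3 were Litaf (r = 0.978) and Gpr180 (r = 0.959).

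Among the other ligands of the family, 3 of 8 could be tested, and Osm, Ebi3 and Il31 had 0 reads in all 12 libraries, which allows up to 3 reads in each. Oncostatin M, the ligand of the receptor that rose, was thus not detected in these cells at this depth. Clcf1, a ligand of the ciliary neurotrophic factor receptor, rose with NE in vector cells from 31.2 ± 14.8 to 66.6 ± 6.99 normalized counts (1.17 on the log2 scale, SE 0.356, adjusted p = 0.0345), a call that was lost with no filter (adjusted p = 0.0805). In tSema4B cells it stood at 37.6 ± 18.1 and 59.5 ± 12.9 (adjusted p = 0.255). Ctf1, or cardiotrophin 1, was at 13.3 ± 7.37 or below in all group means and passed in no comparison.

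Of 5 other receptor chains, 2 could be tested. Il31ra, which pairs with the Osmr chain to bind IL-31, was called higher in tSema4B NE than in vector NE, at 43.3 ± 9.98 against 16.8 ± 7.60 normalized counts (log2 fold change 1.37 with an SE of 0.412, adjusted p = 0.0205), a call that was lost when all detected genes were tested (adjusted p = 0.0615). Il11ra1, the receptor of IL-11, was at 118 ± 24.0 in vector unstimulated and 63.6 ± 25.0 in vector NE, a log2 difference of -0.93 (adjusted p = 0.0178) under the fold threshold with overlapping libraries. Its near copy Il11ra2 had 0 reads, and how reads that match both were counted is not given in the sources used here.

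Of 10 Janus kinase and other STAT genes, 9 were tested, and limma, edgeR and DESeq2 called 0 of them in any of the 4 comparisons, in which limma called 3.82% of all tested genes between the unstimulated lines, 5.76% between the NE-treated lines, 2.63% for NE in vector and 2.07% for NE in tSema4B. In the same order, 2, 4, 1 and 1 of the 9 had an unadjusted p under 0.05, beside 26.1%, 32.9%, 23.9% and 19.9% of all tested genes. Jak1, named after its values were seen, passed the adjusted p in each of the 4 comparisons, as Il6st did, and was higher in each. It stood at 1095 ± 57.4 normalized counts in vector unstimulated, 1493 ± 141 in tSema4B unstimulated, 1359 ± 22.8 in vector NE and 1966 ± 102 in tSema4B NE, with log2 differences between the lines of 0.44 unstimulated (adjusted p = 6.62e-04) and 0.53 after NE (adjusted p = 7.23e-05).

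Of 15 tested negative regulators of cytokine signalling other than Socs3, 1 was called between the unstimulated lines and 1 for NE in tSema4B cells, beside 3.82% and 2.07% of all tested genes, with medians of 0.08 and 0.13 against about 0 for all genes. With a single gene called in each, nothing is read from these counts. Socs5, a relative of Socs3, was higher in tSema4B than in vector unstimulated cells, at 267 ± 22.2 against 110.2 ± 10.2 normalized counts (log2 fold change 1.27, SE 0.149, adjusted p = 2.38e-06), and differed by 0.97 after NE (adjusted p = 6.60e-05). Cish, a cytokine-induced member of the same family, rose with NE in tSema4B cells from 10.4 ± 5.45 to 35.9 ± 6.43 (1.83 on the log2 scale, SE 0.445, adjusted p = 0.0140). In vector cells Cish stood at 15.1 ± 5.87 unstimulated and 26.4 ± 1.01 after NE, without overlap (0.83, adjusted p = 0.271, limma). Its interaction did not pass (adjusted p = 0.627, limma). Socs3 was called after NE in both lines and none of these 15 genes was, a difference that was not tested. At the adjusted p alone 2 of the 15 passed for NE in vector and 3 in tSema4B cells, all higher. Of all tested genes, 11.6% and 6.25% passed it. Ptpn1 (0.60 in vector and 0.66 in tSema4B) and Ptpn2 (0.60 and 0.68) passed in both lines, without overlap and under the fold threshold.

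The 30 genes listed as targets of STAT3 were chosen with earlier results of these data known. Their counts, here and between the lines, are thus a description and no test of STAT3 activity. Of the 30, 29 were tested. In vector cells 14 rose after NE and 0 fell, with a median log2 difference of 0.96, and in tSema4B cells 8 rose and 0 fell, with a median of 0.60. Of all tested genes 1.66% and 1.31% were called higher in these comparisons, and their medians were -0.02 and -0.005. The count in tSema4B cells was 5 with a pseudocount of 10, with a filter of 50 normalized counts or with only the compared groups in the fit. The largest changes in both lines were those of the fibrinogen chain genes, acute phase genes of the liver. Fgb had 0 reads in the 6 unstimulated libraries and stood at 46.3 ± 16.7 normalized counts in vector NE and 7.00 ± 2.48 in tSema4B NE (adjusted p = 2.96e-05 and 0.0177, limma). Fgg went from 3.10 ± 2.05 to 166 ± 46.1 in vector cells and from 1.37 ± 2.37 to 7.59 ± 3.65 in tSema4B cells (adjusted p = 6.62e-06 and 0.0425). Fga went from 4.99 ± 5.23 to 47.7 ± 11.4 and from 0.795 ± 1.38 to 17.2 ± 9.31 (adjusted p = 0.00279 and 0.00343). In tSema4B cells these chains rest on 21 reads or fewer (Fgb, Fgg) and 50 reads (Fga) after NE. None of these chains would have passed the filter on its unstimulated libraries alone.

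Between the lines, most of the called targets were lower in tSema4B cells, while Il6st, Osmr and Lifr were at or above their vector levels. Socs3, counted with the members, overlapped between the lines in each condition (0.43 unstimulated and -0.06 after NE). Stat3 overlapped between the unstimulated lines and lay lower in tSema4B after NE (-0.25, adjusted p = 0.113, limma). In unstimulated cells 3 of the 29 targets were called lower in tSema4B, beside 2.71% of all tested genes, and 1 was called higher (median 0). After NE 6 were called lower, beside 3.73% of all tested genes, and 0 higher (median -0.47, against -0.01 over all tested genes). At the adjusted p alone 4 were higher and 5 lower unstimulated, and 3 higher and 10 lower after NE. Of all tested genes, 13.0% and 21.0% passed it. Hp, which encodes the haemoglobin-binding acute phase protein haptoglobin, was at 175 ± 13.2 normalized counts in tSema4B against 1121 ± 147 in vector unstimulated cells (log2 fold change -2.67, SE 0.107, adjusted p = 1.19e-13) and at 505 ± 45.1 against 2609.9 ± 145 after NE (-2.37, adjusted p = 7.19e-13). Lrg1, a secreted acute phase glycoprotein, differed by -2.49 (adjusted p = 1.19e-07) and Lcn2, the iron-siderophore carrier lipocalin 2, by -1.21 (adjusted p = 0.00796) in unstimulated cells. Timp1, an inhibitor of matrix proteases and the 1 target called higher, stood at 533 ± 79.7 in tSema4B against 256 ± 29.2 in vector (log2 fold change 1.05, adjusted p = 7.80e-06). After NE Fgg (-4.32, adjusted p = 4.83e-05) and Fgb (-2.55, adjusted p = 0.0167) were also lower in tSema4B. The adipocyte markers moved in the same direction as Hp and Lrg1, and their summed level was 33990 to 37724 normalized counts in vector unstimulated and 5375 to 7973 in tSema4B unstimulated libraries, and 48178 to 61149 and 9610 to 11056 after NE. Their part in the differences of the targets was not tested.

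**Figure D4:**
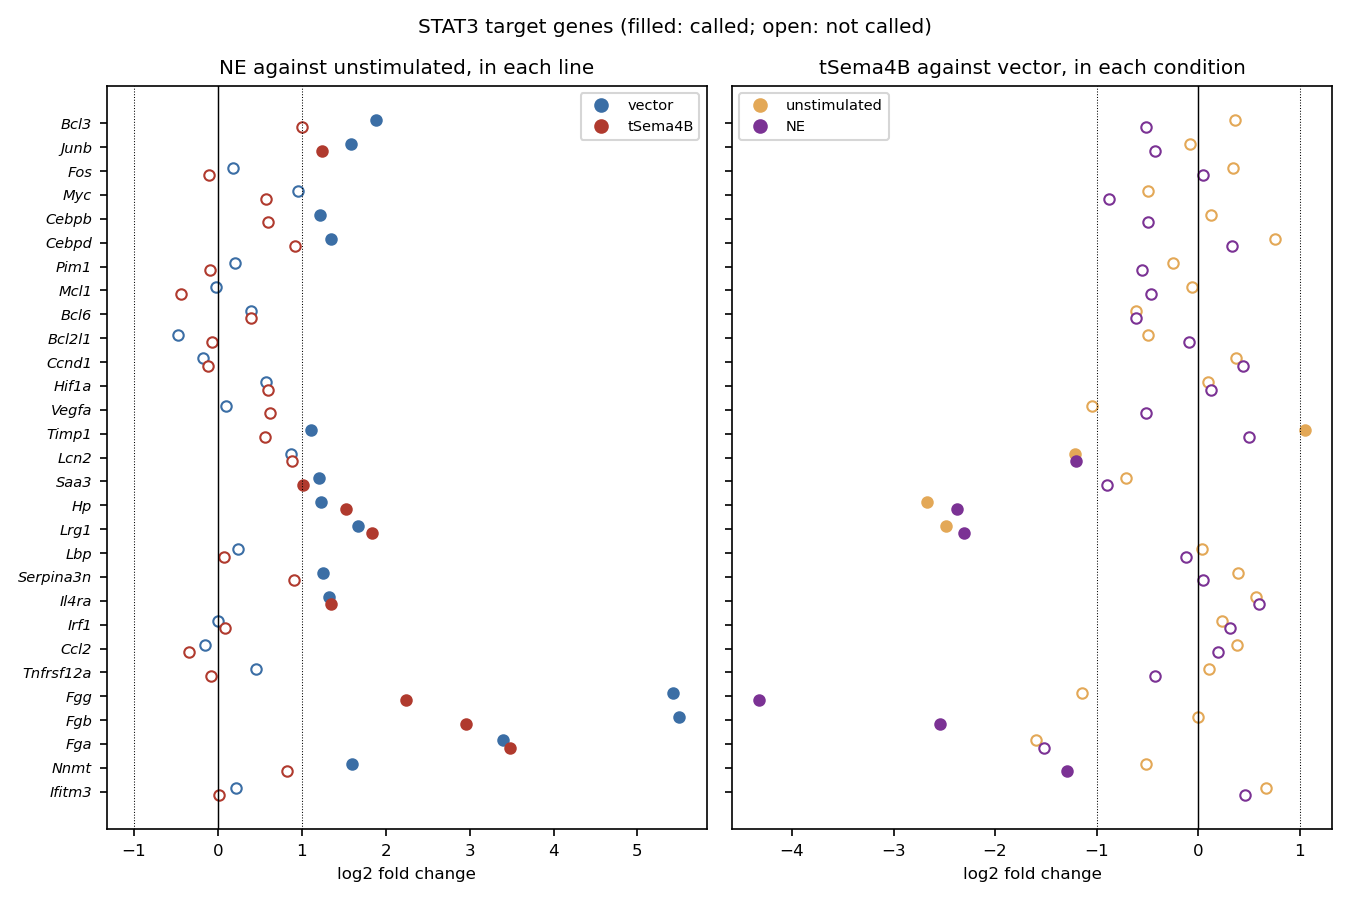
Log2 fold changes of 29 STAT3 target genes for NE in each line (left) and for tSema4B against vector in each condition (right), with filled points for called genes and open points for the others, and dotted lines at the fold threshold. After NE 14 targets are filled to the right in vector cells and 8 in tSema4B cells, whereas between the lines after NE the 6 filled points lie to the left.

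Genes that other signals of the same treatment are known to induce were counted beside the members. Of 10 tested genes of the cAMP response, 5 rose with NE in vector cells (largest Areg, 2.21, Pde4d, 1.81, and Nr4a1, 1.71) and 2 in tSema4B cells (Areg, 3.35, and Crem, 1.40), beside 1.66% and 1.31% of all tested genes called higher. Of 14 tested inflammatory cytokines and mediators, 2 rose with NE in vector cells, namely the alarmin Il33 and the chemokine Cxcl1, and 1 in tSema4B cells, the interleukin 1 antagonist Il1rn, beside the same shares of all tested genes. Areg and Il33 would not have passed the filter on their unstimulated libraries alone. Tnf, Il1a, Il1b, Il10 and Csf3 had 0 reads in all 12 libraries, and Il6 was thus detected without them. Of the 9 immune markers 2 could be tested, and limma called both, Csf1r and Cd14, higher with NE in vector cells and Csf1r in tSema4B cells, beside 1.66% and 1.31% of all tested genes. Csf1r was at 2.74 or less in every unstimulated library and passed the filter only through its NE libraries, so its call was partly set by the filter. DESeq2 called 1 of the 2 markers in each line, and for Csf1r in vector cells it gave no adjusted p. The summed level of all 9 was 13.1 to 21.7 normalized counts in vector unstimulated, 17.8 to 29.4 in tSema4B unstimulated, 43.7 to 58.9 in vector NE and 26.8 to 52.1 in tSema4B NE, beside the 0 reads of Ptprc and Adgre1. The part of immune cells in the rise of Il6 was not tested.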

How the data were processed

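RNAseq was analysed in 12 libraries, grouped by their labels. After a screen for foreign reads, the authors mapped the rest with STAR 2.7.9a to mm10 (GRCm38.p4, per the labels), obtained gene counts with htseq-count and divided them by DESeq2 size factors. The deposited signal is thus a normalized read count. Dividing each library by the value of 1 read gave whole numbers for 100% of values (tolerance 0.01), so whole reads were recovered. The annotation, strand setting and treatment of multimapping reads are not given in the sources used here. Positions and exon lengths were taken from GENCODE for GRCm38.

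One limma 3.58.1 model (R 4.3.3) with a variance trend was fitted to log2(value + 1) of all 11998 tested genes and 4 groups, without a replicate block, with two-sided tests and Benjamini-Hochberg adjustment over all of them. On simulated data the fit was tested before use. Same-numbered libraries of different groups had correlations between -0.047 and 0.028 over 18 pairs, so numbers were not used to pair them. Replicates differed by more than counting error (chi-square per degree of freedom 3.56 to 5.79 over 12 pairs).

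The members, lists and tests were chosen with earlier results of these data known. Named were all 9 members, up to 3 called genes per list and comparison with the largest fold change and no overlap, the other family ligands and receptors (1 tested gene is not reported here), and the 2 genes most like each called member. Alternatives were pseudocounts of 0.5 and 10, no filter or a filter of 50, other scalings, edgeR 4.0.16, DESeq2 1.42.0, the adjusted p alone, only the compared groups, a replicate block and each library left out. Limits from reads cover counting error only, since PCR copies are not independent.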

Additional observations from a re-analysis of the deposited data

How the results depend on the processing

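Of 653 alternative values of the tested members, 622 kept their direction and their side of the threshold, 14 reversed, 13 passed the threshold anew and 4 lost it. With the adjusted p alone the number of called members was 2 and 2 between the lines (unstimulated and after NE) and 6 and 6 for NE (vector and tSema4B). For NE in tSema4B cells the count was 1 with no filter and 1 with a filter of 50, which removes Il6 from the test, and 1 to 2 with single libraries left out (1 without tSema4B NE replicate 2). Il6 also lost its call without tSema4B unstimulated replicate 2 or tSema4B NE replicate 3, where Il6st was called in its place. The filter of 50 removes Il6 in vector cells too, where the lowest count for NE was 2, and single libraries left out kept it at 3. With a replicate block the counts stayed at 0, 0, 3, 2 and 0 for the interaction, and no call of a member changed. The reversals were all of differences that passed no threshold. Scaling to the same total turned Socs3 between the NE-treated lines to 0.0377, and the shift of the median gene stayed under 0.1 in every scaling. Leaving out single libraries gave log2 ranges between the unstimulated lines of -0.0168 to 1.48 for Il6, -0.0774 to 0.22 for Il6ra and -0.16 to 0.0141 for Stat3, and between the NE-treated lines of -0.0014 to 0.14 for Osmr and -0.17 to 0.0731 for Socs3. For Il6ra they gave -0.16 to 0.16 for NE in tSema4B cells and -0.0554 to 0.26 for the interaction. The causes were not tested. The counts of STAT3 targets under the alternatives were chosen after seeing the data, and ranged from 11 to 16 for NE in vector and from 5 to 13 in tSema4B cells. Over all 11998 genes the interaction passed for 3 in limma, 4 in edgeR and 101 in DESeq2. Depth limits Il11, Lif and unstimulated Il6, which rested on 15 reads or fewer per library.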
